A study of Homo sapiens with 2 samples.

Results

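PARP proteins are enzymes that transfer ADP-ribose from NAD onto proteins or nucleic acids, and 8 of their genes are described here together with DTX3L, the ubiquitin ligase that binds PARP9. The 9 genes are PARP1, PARP2, PARP4, PARP8, PARP9, PARP10, PARP12, PARP14 and DTX3L. They were selected on earlier measured values of these same 2 arrays, so their differences are a description and carry no test. Every probe set annotated to one of them alone was taken, which gave 17 of the 54675 probe sets, and 9 of the 13704 genes kept after a filter on dim values. PARP9, DTX3L, PARP14, PARP12 and PARP10 form the group of 5 interferon-inducible members. PARP1 and PARP2 form the group of 2 DNA-repair members, and PARP4 and PARP8 are the 2 others.

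Both arrays hold total RNA of HCT116, an established human colorectal cancer cell line, grown in RPMI-1640 with serum and antibiotics. The first is labelled HCT116-GFP with the genotype wildtype, and the second HCT116-CPEB4, in which CPEB4, an RNA-binding regulator of polyadenylation and translation, was over-expressed through a lentivirus. Whether the HCT116-GFP cells received a vector of their own, and whether either line was 1 clone, is stated by neither the labels nor the series title. The first is called the GFP array below and the second the CPEB4-labelled array, or the array labelled HCT116-CPEB4, since the intensities did not settle the label. There is 1 array in each group and therefore no replicate and no p-value, and the precision of each value is limited by that number of arrays.

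The family divides by what its members make. PARP1 and PARP2 bind broken DNA and build chains of ADP-ribose that recruit repair proteins. Most of the other members attach single ADP-ribose units, and several of these, with DTX3L, belong to the genes that cells switch on when interferon binds its receptors. Interferon signalling reaches such genes through short promoter elements, among them the interferon-stimulated response element (ISRE), which a complex with IRF9 binds, and the gamma-activated site (GAS).

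The promoters are shown first because their letters were not read from the intensities. The interferon-inducible group was made of genes known to be induced by interferon, so its letters are not independent of that choice. Windows from 250 bases before to 50 bases after each transcript start were read from RefSeq on GRCh38.p14. The ISRE was searched as GAAA, any 2 bases and GAAA again, on both strands, the GAS as TTCNNNGAA (N is any base), which reads the same on both strands, and the GC box as GGGCGG on both strands. The ISRE letters lie in 3.57% of all 35116 windows, the GAS letters in 7.66% and the GC box letters in 45.0%. At the level of genes, 4.38% of 27305 genes have a window with the ISRE letters. Of the interferon-inducible members, 4 have a window, and all 4 of these hold the ISRE letters in at least 1 window. PARP9 has 2 windows and holds them in 1, whose start is the one used below. Neither DNA-repair member does, and PARP8 has none in its 3 windows. A match is a run of letters and was not tested as a site of binding.

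PARP9 and DTX3L lie head to head on chromosome 3, with 37 bases between their starts, and share a single ISRE match. It runs from 6 bases before to base 4 after the start of DTX3L, and from 41 to 32 bases before the start of PARP9. The stretch from the base next to the start of PARP9 to base 30 after the start of DTX3L is chr3:122564301-122564367 on the plus strand, the strand of DTX3L. PARP14 follows on the same chromosome (chr3:122680739-122680838, plus strand) and has its ISRE match 29 to 20 bases before its start. PARP12 is on chromosome 7 (chr7:140062952-140063051, minus strand), with the match 10 to 1 bases before its start. The sequences are given 5′ to 3′ on the strand of the named gene, and capitals mark the ISRE letters on either strand.
DTX3L and PARP9: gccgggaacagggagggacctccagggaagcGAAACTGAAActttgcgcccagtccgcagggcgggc
PARP14: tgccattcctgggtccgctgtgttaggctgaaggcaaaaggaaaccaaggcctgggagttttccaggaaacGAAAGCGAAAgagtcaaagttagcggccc
PARP12: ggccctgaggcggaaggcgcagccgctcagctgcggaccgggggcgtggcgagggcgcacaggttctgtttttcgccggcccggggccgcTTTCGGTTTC

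The same stretch of 100 bases before the start is shown for the DNA-repair members, to set a promoter without the ISRE letters beside those with them. PARP1 is at chr1:226408094-226408193 on the minus strand, and PARP2 at chr14:20343535-20343634 on the plus strand. No base is in capitals, since no ISRE match was found. The PARP1 stretch holds 2 GC boxes.
PARP1: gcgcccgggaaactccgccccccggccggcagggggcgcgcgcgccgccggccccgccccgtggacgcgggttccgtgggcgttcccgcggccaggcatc
PARP2: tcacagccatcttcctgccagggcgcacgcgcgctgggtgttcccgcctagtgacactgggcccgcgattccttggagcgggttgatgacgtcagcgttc

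GAS letters were found in PARP14, 40 to 32 bases before the start and next to its ISRE match without overlapping it. They were also found in PARP2, 154 to 146 bases before the start. A GC box lies in at least 1 window of each of PARP9, DTX3L, PARP14, PARP12, PARP1, PARP2 and PARP8. It is in 1 of 2 PARP9 windows and in 1 of 3 PARP8 windows. This motif thus does not separate the groups.

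**Figure D1:**
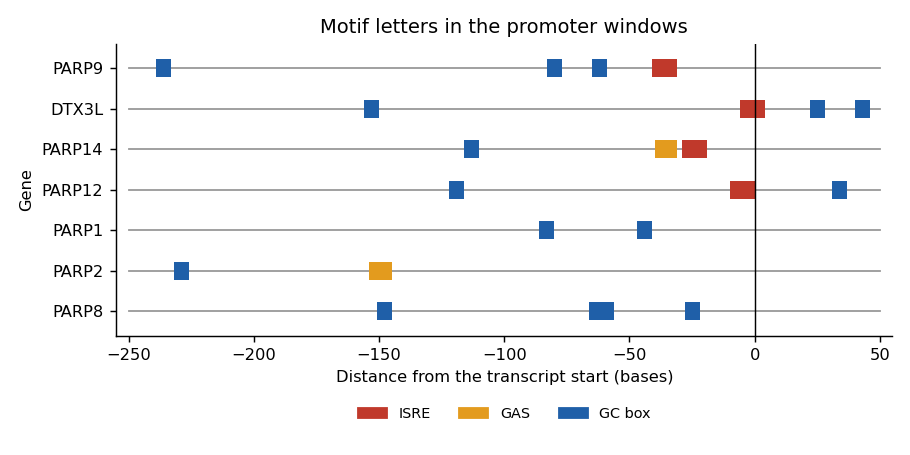
Motif letters in the promoter windows of the members that have one. Of PARP9 and PARP8, 1 window each is drawn, and their other windows hold none of these letters. The horizontal axis is the distance from the transcript start in bases, each line is 1 gene, and boxes mark ISRE (red), GAS (orange) and GC box (blue) letters on either strand. Red boxes are present in PARP9, DTX3L, PARP14 and PARP12 and absent from PARP1, PARP2 and PARP8.

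Facts of the arrays as a whole bear on how the members can be read. The median intensity was 60.6 on the GFP array against 61.1 on the array labelled HCT116-CPEB4, and a probe set was kept where the higher of its 2 values reached 60.8, the dim filter. The targeted gene CPEB4 was 731 on the GFP array against 628 on the array labelled HCT116-CPEB4, a log2 difference of -0.22, and its 3 kept probe sets ran from -0.44 to -0.08. Which part of CPEB4 these probe sets read is not known here, and a vector may lack that part, so they do not check the label. Of 9 colon epithelium markers, 7 reached the dim filter on the GFP array against 9 on the CPEB4-labelled array, with EPCAM at 20994 and 20717. CDX1 and the brightest probe set of VIL1 were under the filter on the HCT116-GFP array, while another VIL1 probe set was under it on the array labelled HCT116-CPEB4 alone. Of 9 markers of blood, vessel, stroma and liver cells with a probe set, 3 reached the filter on each array, and 2 on both. The summed intensity of the 9 was 1356 and 1699, of which COL1A1 alone read 949 and 1292 on its brightest probe set. The ratio of 3′ to 5′ signal, a sign of RNA length, was 8.23 and 10.3 for ACTB but 0.99 and 1.04 for GAPDH. The part of these values in the members' differences was not tested.

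All differences below are log2 of the array labelled HCT116-CPEB4 minus log2 of the HCT116-GFP array, on the brightest kept probe set of a gene, and 2-fold is a rule of size. At 2-fold, 3.55% of all kept genes were higher on the array labelled HCT116-CPEB4 and 3.85% were lower. Of the 5 interferon-inducible members, 3 were higher by 2-fold or more on that probe set (PARP9, PARP14 and PARP10), and none was lower. PARP10 was kept there only through the array labelled HCT116-CPEB4. Other kept probe sets of PARP10 and PARP14 were lower on that array, at -2.75 and -0.51. On the brightest kept probe set, all 5 had a difference above 0, with a median of 1.61, beside a median of 0.00 over all 13704 genes. The DNA-repair members had a mean difference of -0.13, which leaves a gap of 1.73 between the groups. These differences chose the members and support nothing by themselves. The nearest member past 2-fold was PARP14 at 1.61, and the nearest short of it was DTX3L at 0.97. In RNA of a whole culture, fewer cells with a transcript and less of it in each cell cannot be told apart.

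PARP9, an inactive or weakly active PARP that works in a complex with DTX3L, had the highest difference among members whose 2 arrays were both above the dim filter. Its brighter probe set (223220_s_at) read 353 on the GFP array against 1246 on the array labelled HCT116-CPEB4. The difference was 1.82, a 3.53-fold higher value. Among 3504 probe sets of similar brightness (mean log2 intensity within 0.5), 8 had a difference at least as high. The other probe set (227807_at) read 279 and 489, a difference of 0.81, so both were higher in the same direction but by unequal amounts. A gap between the 2 brightest probe sets of at least this size, 1.01, occurs in 10.0% of genes with 2 or more kept.

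DTX3L, the ubiquitin ligase partner that shares the promoter stretch with PARP9, was read by a single probe set (225415_at). It gave 702 on the GFP array against 1372 on the CPEB4-labelled array. The difference of 0.97, or 1.96-fold, fell just short of 2-fold, and 13 of 3255 probe sets of similar brightness were at least as high. The pair of genes with the common start region was thus higher together on the array labelled HCT116-CPEB4, with PARP9 differing by the larger fold on its brighter probe set and by the smaller on the other.

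PARP14, a large enzyme with macrodomains that recognise ADP-ribose, gave opposite directions on its probe sets. The first (224701_at) read 85.5 on the GFP array against 260 on the array labelled HCT116-CPEB4, a difference of 1.61 or 3.04-fold. Of 3797 probe sets of similar brightness, 14 were at least as high. The second (232610_at) read 94.9 and 66.6, a difference of -0.51, which lies within the central 95% of probe sets of its brightness (-1.40 to 1.43). The gap of 2.12 between them is matched or passed by 2.93% of genes, and the mean of both is 0.55. Both probe sets lie close to the dim filter on at least 1 array.

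PARP12, a zinc-finger member that attaches single ADP-ribose units, was read by 1 probe set (218543_s_at), at 730.5 on the GFP array against 1405 on the CPEB4-labelled array. The difference was 0.94, or 1.92-fold, and 14 of 3224 probe sets of similar brightness were at least as high. PARP12 is on another chromosome than the PARP9 cluster and had nearly the same difference as DTX3L.

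PARP10, a mono-ADP-ribosyltransferase encoded on chromosome 8, had no settled direction. One probe set (229350_x_at) read 17.0 on the GFP array against 151 on the array labelled HCT116-CPEB4, a difference of 3.15, and it was kept only through the second array. Another (228669_x_at) read 71.3 and 10.6, a difference of -2.75, and it was kept only through the first. The 2 that stayed under the filter on both arrays read 23.3 and 24.4 (226401_at), and 8.15 and 8.80 (238083_at). Both kept probe sets have the suffix for probes that can match other transcripts. Their gap of 5.90 is matched or passed by 0.0613% of genes, and their mean difference is 0.20. Without PARP10, the median of the interferon-inducible members is 1.29 and the gap to the DNA-repair members 1.41.

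**Figure D2:**
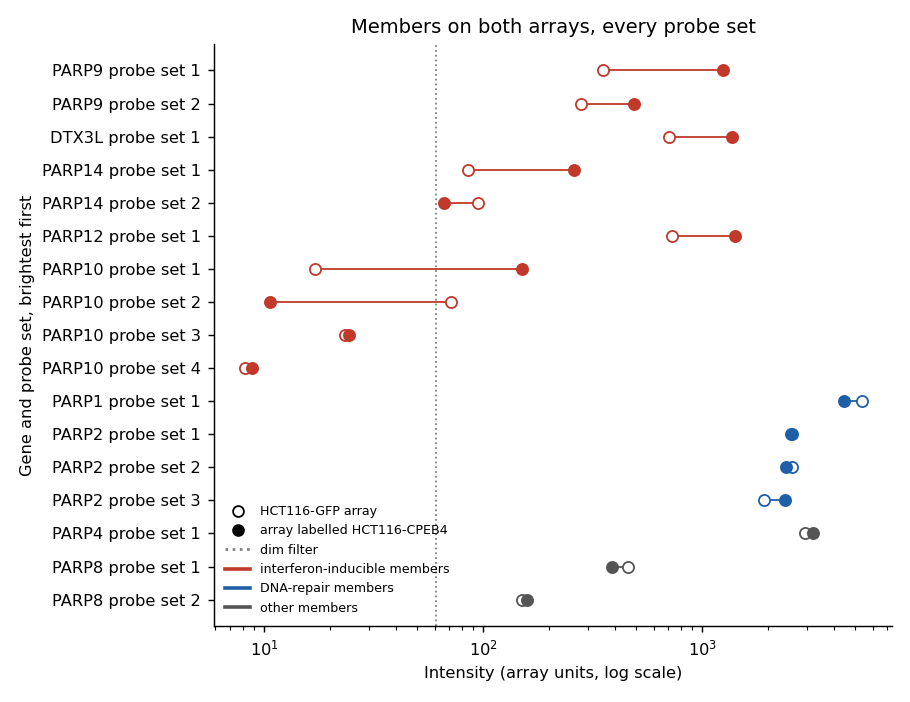
Intensity of every member probe set on both arrays, on a log axis in array units. Open circles are the HCT116-GFP array, filled circles the array labelled HCT116-CPEB4, and the dotted line is the dim filter at 60.8. The filled circle lies to the right for both PARP9 probe sets, DTX3L and PARP12, and the probe sets of PARP14 and PARP10 point both ways.

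PARP1, the main sensor of DNA breaks in the family, read 5332 on the GFP array against 4443 on the CPEB4-labelled array (208644_at). Its difference of -0.26 lies within the central 95% of probe sets of its brightness, which spans -0.48 to 0.45. PARP2, which acts with PARP1 at single-strand breaks, was read by 3 probe sets. They gave 2536 and 2557 (215773_x_at), 2573 and 2410 (204752_x_at), and 1909 and 2381 (214086_s_at). The differences were 0.01, -0.09 and 0.32, so no PARP2 probe set came near 2-fold in either direction.

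PARP4, the PARP of vault particles, read 2956 on the GFP array against 3206 on the CPEB4-labelled array (202239_at), a difference of 0.12. PARP8, a less studied member thought to attach single ADP-ribose units, read 459 and 388 (219033_at), a difference of -0.24. Its second probe set read 150 and 158 (244008_at), a difference of 0.08. Both PARP8 values lie within the central 95% of probe sets of their brightness.

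Counted by probe set, 15 of the 17 passed the dim filter, and 12 of the 17 had a difference above 0, beside 49.8% of all 41091 named probe sets. After loess the count was 10, beside 43.6% of all, because both dim PARP10 probe sets turned to -0.30 and -0.64. The interferon-inducible members have 10 probe sets, of which 8 passed, 3 were higher and 1 was lower by 2-fold or more. Of all 25010 kept probe sets, 4.60% were higher and 4.48% lower by that rule, and since these differences chose the members nothing is read from the counts. The 4 DNA-repair probe sets split evenly, with 2 above and 2 below 0, and the 3 of PARP4 and PARP8 had 2 above and 1 below. Intensities of different probe sets were not set against each other as levels, because each has its own probes.

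**Figure D3:**
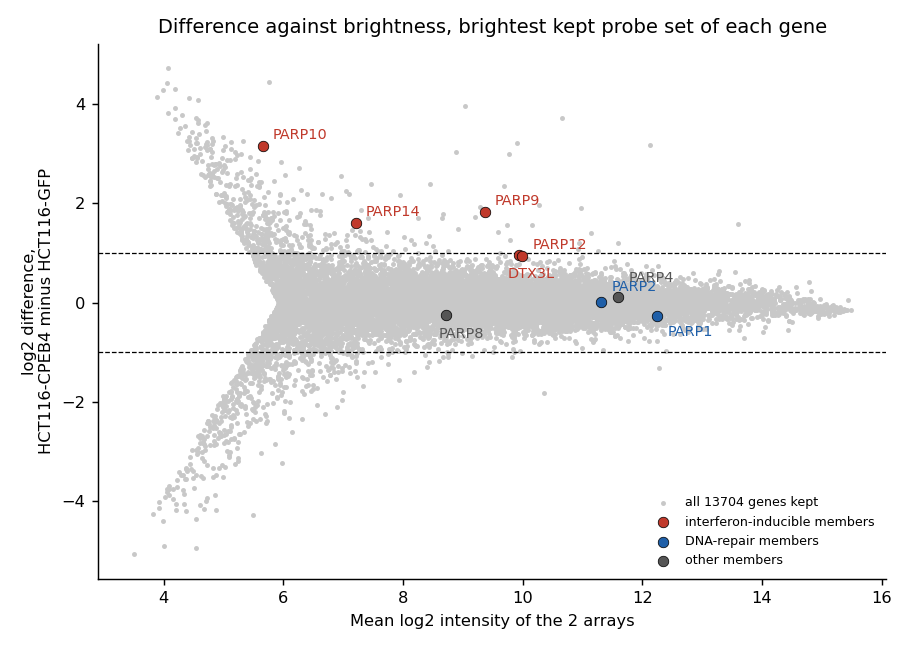
Log2 difference (array labelled HCT116-CPEB4 minus HCT116-GFP) against mean log2 intensity for the 13704 kept genes in grey, with the members in colour and dashed lines at 2-fold. PARP9, PARP14 and PARP10 lie above the upper line, DTX3L and PARP12 just under it, and PARP10 lies in the dim region where grey points spread widely on both sides.

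The members kept their sign under each alternative setting that gave them a value. DTX3L ran from 0.94 to 0.97 and PARP12 from 0.91 to 0.94, so neither reached 2-fold under any of them. PARP9 ran from 0.81 to 1.82 and fell short of 2-fold where probe sets with the x or s suffix were left out. PARP14 ran from 0.55 to 1.61 and PARP10 from 0.20 to 3.17, and both fell short of 2-fold with the mean over kept probe sets. PARP1 stayed between -0.27 and -0.25, PARP2 between 0.01 and 0.08, PARP4 between 0.11 and 0.13, and PARP8 between -0.27 and -0.08.

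**Figure D4:**
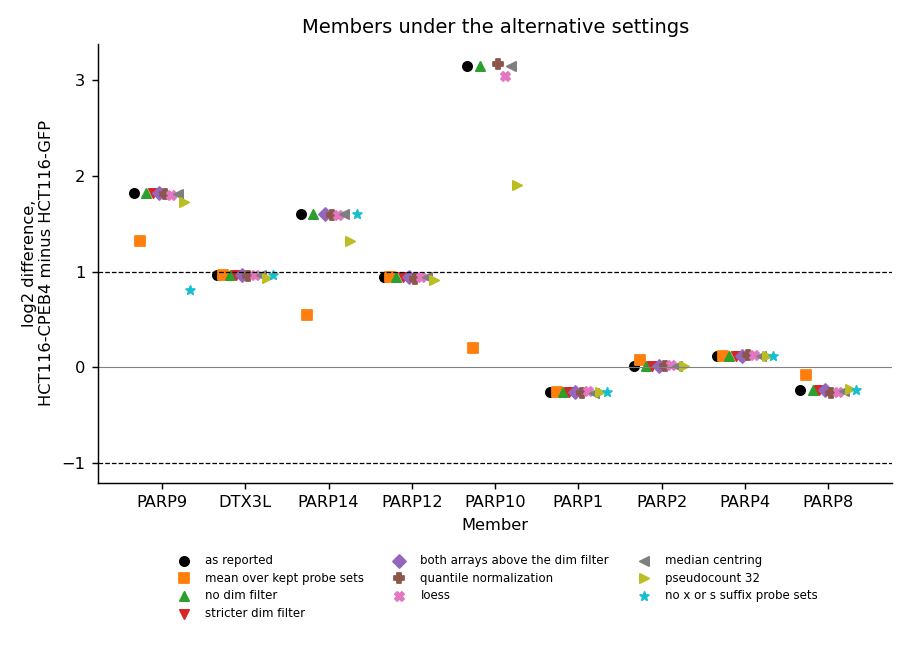
Log2 difference of each member as reported and under each alternative that gave a value, with dashed lines at 2-fold. Points of DTX3L, PARP12, PARP1, PARP2, PARP4 and PARP8 lie close together, and those of PARP9, PARP14 and PARP10 spread. The spread goes with the choice of probe set and, for PARP14 and PARP10, also with the pseudocount (1.31 and 1.90). DTX3L, PARP12, PARP1 and PARP4 have 1 probe set each, so that choice could not move them.

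The rest of the PARP family gives the setting for these values. Of 9 such genes, 8 were kept, 1 was higher and 0 were lower by 2-fold or more, with a median difference of -0.16. The exception was ZC3HAV1, the catalytically inactive zinc-finger antiviral protein, at 1336 on the GFP array against 2821 on the CPEB4-labelled array. Its difference was 1.08, and its 3 probe sets ran from 0.72 to 1.69. The ISRE letters were found in the window of none of the 8 other family genes that have a window, ZC3HAV1 included.

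PARP16, an enzyme of the endoplasmic reticulum membrane, read 395 and 217, a difference of -0.86. PARP3, a break-responsive enzyme close to PARP1 and PARP2, read 119 and 164, a difference of 0.46. Among the rest, the tankyrases TNKS and TNKS2 had differences of -0.30 and -0.06, PARP6 of -0.26 with its other 2 kept probe sets at 0.24 and 0.38, PARP11 of -0.26, and TIPARP, a target of the aryl hydrocarbon receptor, of -0.02. Another kept TNKS2 probe set read 169 and 73.7, a difference of -1.20, with both arrays above the dim filter. A further one read 78.8 and 7.47, a difference of -3.40, and was kept only through the GFP array.

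PARP15, the gene between DTX3L and PARP14 on chromosome 3, did not pass the dim filter, and its brighter probe set read 16.6 and 5.18. At these dim values PARP15 has no usable difference. On the side of PARP9, FAM162A, WDR5B and KPNA1 had differences of -0.24, 0.06 and 0.44. On the side of PARP14, HSPBAP1 had 0.09 and SLC49A4 0.02. The next gene, SEMA5B, a semaphorin, read 66.5 on the GFP array against 162 on the CPEB4-labelled array, a difference of 1.29 on a single probe set near the dim filter.

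The enzymes that remove ADP-ribose, the proteins that read it, the other deltex ligases, the vault protein MVP and the NAD enzymes were taken as lists, and 36 of their 43 genes were kept. Of these, 0 were higher and 3 were lower by 2-fold or more, beside 3.55% and 3.85% of all kept genes. The 3 lower genes, MACROD2, CHFR and DTX1, were read by probe sets under the dim filter on the array labelled HCT116-CPEB4. Those probe sets were kept only through the GFP array, where they read 131, 67.4 and 69.7 against the dim filter of 60.8. PARG, which degrades ADP-ribose chains, read 1190 on the GFP array against 729 on the CPEB4-labelled array, a difference of -0.71. MACROD2, a macrodomain hydrolase, read 131 and 59.7, a difference of -1.13, while another of its probe sets gave 0.25. NUDT16 had 0.55 with another probe set at -0.31, MACROD1 had 0.10, and the median of the 7 kept removal genes was -0.01.

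Among 13 kept repair partners and readers, HPF1, the cofactor that directs PARP1 and PARP2 to serine, read 3962 and 3933, a difference of -0.01. The lowest were CHFR, a checkpoint ubiquitin ligase that binds ADP-ribose chains, at 67.4 and 30.2 (-1.16), and MACROH2A2, a macrodomain histone, at -0.42. The highest were APLF and APTX, both at 0.42, and the other APTX probe sets gave 0.04 and 2.13. The list's median was -0.03, close to that of all genes.

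DTX3L was the only kept deltex gene near 2-fold upwards. DTX1 read 69.7 on the GFP array against 20.0 on the CPEB4-labelled array, a difference of -1.80 that starts close to the dim filter. DTX2 had 0.42 and DTX4 -0.11, and DTX3 did not pass the filter. MVP, the shell protein of the vaults that hold PARP4, read 1567 and 1752, a difference of 0.16.

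NAD is the substrate of every active PARP. NAMPT, the rate-limiting enzyme of its salvage from nicotinamide, read 4159 on the GFP array against 2936 on the CPEB4-labelled array, a difference of -0.50. Of 12 kept NAD genes, 0 passed 2-fold in either direction, and the median was -0.16. QPRT, which makes NAD precursors from quinolinate, had -0.38. NADSYN1, the NAD synthetase, had 0.44 with another probe set at -0.53, and NNMT, which methylates nicotinamide, had 0.41 with another probe set at -2.24.

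Interferon-stimulated genes outside the family were compared with the members. Of the 16, 15 were higher by 2-fold or more, beside 3.55% of all kept genes, and their list had a median of 2.36. These genes were chosen with earlier results of these arrays known, so their direction is not independent of the members' choice. MX1, OAS1 and IFI44 were under the dim filter on the GFP array and were kept only through the array labelled HCT116-CPEB4, where they are high. IFIT3 and IFIT1, antiviral proteins that bind viral RNA, had 3.95 and 3.72. The lowest were HERC5, the ISG15 ligase, at 1.20 and the RNA sensor RIGI at 0.93 on its brightest probe set, whose other 2 kept probe sets gave 2.18 and 1.34. The differences of PARP9 and PARP14 lie between these ends, and those of DTX3L and PARP12 lie at the lower one, which rests on that choice of RIGI probe set. ISRE letters were found in 12 of the 15 comparison genes with a window.

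The receptors and kinases upstream did not show the same values. Of 12 kept interferon signalling genes, 1 was higher and 0 were lower by 2-fold or more, with a median of -0.03. The one past 2-fold was IRF7, a factor that drives interferon genes, at 323 on the GFP array against 1071 on the CPEB4-labelled array, a difference of 1.73. IRF9, the DNA-binding subunit that recognises the ISRE, read 566 and 1052, a difference of 0.89. JAK2 had -0.65, with another probe set at 0.44, and IFNGR2, a chain of the interferon gamma receptor, had -0.49. STAT2 was not analysed here.

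**Figure D5:**
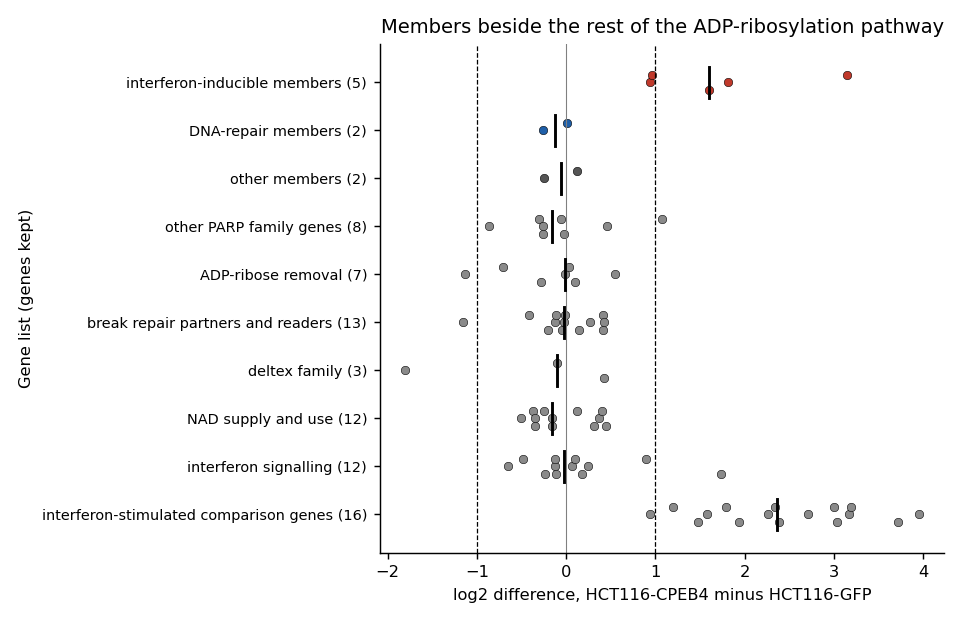
Log2 difference (array labelled HCT116-CPEB4 minus HCT116-GFP) of each kept gene, by list, with the median of each list as a black bar and dashed lines at 2-fold. The interferon-inducible members have a median of 1.61 and the interferon-stimulated comparison genes 2.36, and the other lists drawn have medians between -0.16 and -0.01.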

How the data were processed

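Each of the 2 arrays carries biotin-labelled RNA of 1 culture. The values deposited by the authors are linear intensities, 1 per probe set on each array. The submitters' processing notes name Partek. Not given in the sources used here are the summarisation of probes, the background correction and the scaling. Both arrays have a trimmed mean of 500.1 with 2% of values removed at each end. No value column was left out (0 unused). Groups came from the sample titles.

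Probe sets were named through the platform annotation, with symbols updated to RefSeq. Of 54675, 41097 have 1 symbol, 1801 several and 11777 none. Log2 was taken without a pseudocount. The dim filter asked that at least 1 array reach 60.8, the 50th percentile over both arrays, and 25010 probe sets passed. A gene took its brightest kept probe set, and 2-fold was the rule of size. That rule was run on simulated data with planted changes larger than 2-fold, in genes above the dim filter on the GFP array. The simulated log2 noise was equal at all intensities, so the run does not speak for dim probe sets or for changes near 2-fold.

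The members and lists were chosen with earlier results of these data known. Named genes are all members, the rest of the PARP family, the 2 highest and 2 lowest kept genes of each other list (all where 4 or fewer), STAT2, IRF9, HPF1, PARG and NAMPT, and 3 neighbours on each side of the PARP9 cluster. One further gene of the rule is not reported here. The alternatives changed the filter, the gene value, the normalization, the pseudocount, the probe set suffixes and the fold. Python 3.11.15, pandas 2.3.3, numpy 2.4.6, statsmodels 0.14.6 and matplotlib 3.10.9 were used. Promoter windows came from RefSeq on GRCh38.p14, and PARP4 and PARP10 were not analysed there.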

Additional observations from a re-analysis of the deposited data

How the results depend on the processing

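No paired analysis was possible because each group has 1 array. Quantile normalization, loess and median centring moved none of the group values beyond 0.27 on the log2 scale, the median gap between the 2 brightest probe sets of a gene, nor any count by over 1.5 times. With the mean over kept probe sets, 1 interferon-inducible member passed 2-fold, their median was 0.94, the gap to the DNA-repair members 1.04, and 1 other PARP gene was lower. With no dim filter, 1761 genes were higher and 1875 lower, with 1 other PARP gene and 5 genes of the ADP-ribosylation lists lower. With the filter at 377, 1 member of the 3 kept passed 2-fold, the median was 0.97 and the gap 1.09, 40 genes were higher and 14 lower, and 0 of the ADP-ribosylation lists were lower. With both arrays above 60.8, the median was 1.29 and the gap 1.41, 89 genes were higher and 70 lower, and 0 of those lists were lower. With a pseudocount of 32, the median was 1.31 and the gap 1.44, 281 genes were higher and 292 lower, and 0 of those lists were lower. Without probe sets of the x or s suffix, 1 member of 3 passed (PARP14), the median was 0.97, the gap 1.23, and 7 member probe sets were above 0. PARP2 has no probe set left in that setting, so the gap there is to PARP1 alone. At 1.5-fold, 5 members passed, 1126 genes were higher and 1137 lower, and 1 other PARP gene was lower. Without PARP10, added after the values were seen, the median was 1.29 and the gap 1.41. No group value past 2-fold and no member's gene value turned its direction where a setting gave one, but after loess 2 dim PARP10 probe sets did. The filters and suffix rule leave fewer members by construction, and other causes were not tested.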

Other observations

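The ISRE letters were also counted over all kept genes with a promoter window, by direction of the difference between the arrays. They lie in 43 of 357 genes higher by 2-fold or more on the array labelled HCT116-CPEB4 (12.0%), in 372 of 10307 genes within 2-fold (3.61%), and in 18 of 377 lower genes (4.77%). With both arrays above the dim filter, the shares are 22 of 65 (33.8%), 345 of 9801 (3.52%) and 1 of 53 (1.89%). PARP9, PARP14 and most comparison genes with a window are among those counted as higher. DTX3L, PARP12 and RIGI were counted within 2-fold, and PARP10, PARP4 and IFIT2 have no window. The letters lie in PARP9, PARP14, IFIT1, IFIT3, ISG15, OAS3, IFI6, IFI27, IFIH1, DDX60, HERC5 and SAMD9, counted as higher under both settings. These were chosen with earlier results of these arrays known, so the shares of higher genes are not independent of that choice. No test was made of the difference between the shares.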
